A study of Homo sapiens with 12 samples.

Results

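Messenger RNA of 9 genes for angiogenic and stress-induced secreted factors was examined in Hs 578T cells, a triple-negative breast cancer line from a mammary carcinosarcoma. The 9 were chosen by gene symbol out of 55765 symbols in the count files: ESM1, ANGPTL4, VEGFA, STC1, STC2, ADM, ADM2, TFPI2 and ACKR3. Earlier results of these data were known at that point: ESM1, ANGPTL4 and ADM2 were listed because they had been seen to rise and ACKR3 because it had been seen to fall, in a comparison that was not named. The values of these 4 genes are therefore selected on the readout and are given below as a description without a test. The other 5, VEGFA, STC1, STC2, ADM and TFPI2, were listed without a direction and were tested.

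All cells of the study were transduced with lentiviral vectors, either for GFP, the control protein, or for full-length NRF2, the transcription factor that drives antioxidant genes. Each population was kept for 8 h in medium with 0.8 mM L-cystine (Cyss, the oxidised dimer through which cells import cysteine) or in the same medium without Cyss, so the 4 groups were GFP with Cyss, GFP without Cyss, NRF2 with Cyss and NRF2 without Cyss. Every group had 3 libraries of poly(A) RNA, and the medium of all groups held serum, methionine and glutamine. A single cell line in culture was used, with no endothelial or stromal cells beside it, and the NRF2 cells made NRF2 from a vector on top of their own gene.

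ESM1 (endocan) is a proteoglycan that endothelial cells release under VEGF stimulation, and VEGFA is the main growth factor for vessel sprouting. ANGPTL4 inhibits lipoprotein lipase and acts on vessel permeability, STC1 and STC2 are the stanniocalcins, glycoproteins induced by hypoxia and by endoplasmic reticulum stress, and ADM and ADM2 are vasodilating peptides that signal through CALCRL with a RAMP partner. TFPI2 is a matrix-bound inhibitor of plasmin and related proteases, and ACKR3 is the exception in the list, a cell surface receptor that takes up the chemokine CXCL12 without classical G protein signalling. Several of these genes are textbook targets of HIF or of the ATF4 arm of the integrated stress response, the program that cells start when amino acids run short.

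The RefSeq promoter table (GRCh38.p14, 250 bases before to 50 after the start site) matched 6 of the 9: ESM1, STC2, TFPI2, ADM, ANGPTL4 and ADM2. The sequences of 5 are shown because ESM1, ANGPTL4 and TFPI2 shared one pattern across the libraries, and ADM2 and STC2 another. Capitals mark every match, on either strand, to 6 short motifs: TGATGCAA (ATF4 and C/EBP composite element), ACGTG (hypoxia response element core), its second form GCGTG, TGACNNNGC (antioxidant response element core), TGANTCA (AP-1 element) and CCAAT (the box of that name). ESM1 lies at chr5:54985544-54985843 on the minus strand, ANGPTL4 at chr19:8363905-8364204 on the plus strand, TFPI2 at chr7:93890704-93891003 on the minus strand, ADM2 at chr22:50481293-50481592 on the plus strand and STC2 at chr5:173328365-173328664 on the minus strand. All are written 5′ to 3′ along the gene.
ESM1: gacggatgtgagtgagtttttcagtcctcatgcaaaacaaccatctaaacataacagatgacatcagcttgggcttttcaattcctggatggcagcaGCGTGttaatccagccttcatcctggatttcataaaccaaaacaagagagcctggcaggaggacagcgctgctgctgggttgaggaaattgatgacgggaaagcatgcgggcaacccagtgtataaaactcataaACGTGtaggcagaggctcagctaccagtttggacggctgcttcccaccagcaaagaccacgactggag
ANGPTL4: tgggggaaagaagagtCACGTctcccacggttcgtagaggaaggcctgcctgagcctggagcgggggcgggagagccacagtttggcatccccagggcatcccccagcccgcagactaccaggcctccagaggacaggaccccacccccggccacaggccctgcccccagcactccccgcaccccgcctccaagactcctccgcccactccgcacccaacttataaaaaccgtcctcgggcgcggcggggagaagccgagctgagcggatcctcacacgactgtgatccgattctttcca
TFPI2: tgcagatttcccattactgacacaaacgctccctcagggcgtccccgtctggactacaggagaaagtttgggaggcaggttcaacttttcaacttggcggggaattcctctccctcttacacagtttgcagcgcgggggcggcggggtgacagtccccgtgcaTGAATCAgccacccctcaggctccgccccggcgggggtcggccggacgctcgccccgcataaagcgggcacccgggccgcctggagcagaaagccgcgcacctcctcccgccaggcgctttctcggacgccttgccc
ADM2: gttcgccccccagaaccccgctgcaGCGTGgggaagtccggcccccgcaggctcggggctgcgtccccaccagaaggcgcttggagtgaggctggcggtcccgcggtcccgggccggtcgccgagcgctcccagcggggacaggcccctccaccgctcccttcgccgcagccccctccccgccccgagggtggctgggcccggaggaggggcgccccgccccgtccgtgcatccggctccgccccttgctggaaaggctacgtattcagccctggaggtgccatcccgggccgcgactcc
STC2: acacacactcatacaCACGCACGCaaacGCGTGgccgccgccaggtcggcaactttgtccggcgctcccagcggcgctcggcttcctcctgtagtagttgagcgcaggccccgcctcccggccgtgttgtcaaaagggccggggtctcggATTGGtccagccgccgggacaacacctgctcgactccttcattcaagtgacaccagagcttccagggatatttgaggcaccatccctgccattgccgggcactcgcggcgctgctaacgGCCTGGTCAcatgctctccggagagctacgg

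Counted from the start site, the ESM1 window held GCGTG at -153 and ACGTG at -18, and the ANGPTL4 window held ACGTG on the other strand at -234. The TFPI2 window held a single match, TGANTCA at -87, with the letters TGAATCA. In the other pattern, ADM2 held GCGTG at -225, and STC2 held GCGTG 3 times (-222 on the gene strand, -231 and -235 overlapping on the other strand), CCAAT on the other strand at -100 and TGACNNNGC on the other strand at 20. The ADM window, not shown, held GCGTG at -101. None of the 6 windows held TGATGCAA. Of 35116 promoters of the same length, 0.866% held TGATGCAA, 21.4% ACGTG, 36.5% GCGTG, 13.3% TGACNNNGC, 7.71% TGANTCA and 34.6% CCAAT. Both windows of the second pattern thus held GCGTG, but so did ESM1 of the first pattern and ADM. No motif was in all 3 windows of the first pattern, and STC1 had no window.

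Reads on genes ranged from 27250993 to 44596870 per library (median 32857536), with 0.254% to 0.303% of reads on rRNA genes. NFE2L2, the gene of NRF2, was at 3786 ± 108 normalized counts (SD, n = 3, as for all means below) in the GFP group with Cyss, 4590 ± 96.9 in GFP cells without it, 6696 ± 198 in NRF2 cells with Cyss and 7940 ± 614 without it, and the groups with the 2 vectors did not overlap. Labelled an epithelial tumor line, the cells had 0 reads of EPCAM in 9 of 12 libraries and CDH1 between 3.07 and 13.8 normalized counts, beside KRT18 from 769 to 1469 and the mesenchymal genes VIM (142216 to 169050) and FN1 (787831 to 901040), so 5 of 7 epithelial markers (all but KRT8 and KRT18) stayed at or under 13.8. Of 5 endothelial markers, CDH5, CLDN5, VWF and TEK stayed at or under 6.06 normalized counts in every library, and the sum of the 5, most of it KDR, was 51 to 65, 56.5 to 63.6, 52.2 to 62.3 and 70.9 to 92.6 in the 4 groups in the order above.

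One library stood apart. On the first principal component (27.9% of the variance), replicate 3 of GFP without Cyss scored 4.5 against -10.8 and -7.9 for replicates 1 and 2, toward NRF2 cells without Cyss, which scored 26 to 29. Over 13792 genes its median ratio to the mean of the other two was 0.994, and 0.471% of genes had a ratio of at least 1.5. Among the 9 genes, 4 did: ESM1 (3.18), ANGPTL4 (2.9), STC1 (2.04) and TFPI2 (1.52). The ratio was 1.27 for VEGFA, 1.13 for ADM2 and 1.06 or less for STC2, ADM and ACKR3. Fold changes of the 9 genes that rest on this group are given with and without that library.

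The 9 genes fell into several patterns, which are taken in turn below by the role of each product. ESM1, ANGPTL4, STC1 and TFPI2 were high in NRF2 cells without Cyss and otherwise on average near their baseline except in the library that stood apart. Without Cyss, these genes and VEGFA rose in the order of replicates 1, 2 and 3 in both populations. ESM1 thus also differed between replicates 1 and 2 of GFP without Cyss (37.2 and 80.7 normalized counts). VEGFA was higher without Cyss in both populations and highest in NRF2 cells. ADM2 and STC2 were higher without Cyss to a similar extent in both populations. ADM stayed within a narrow band, and ACKR3 was high only in NRF2 cells with Cyss. In bulk RNA, more RNA per cell and more cells that make it cannot be told apart.

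**Figure D1:**
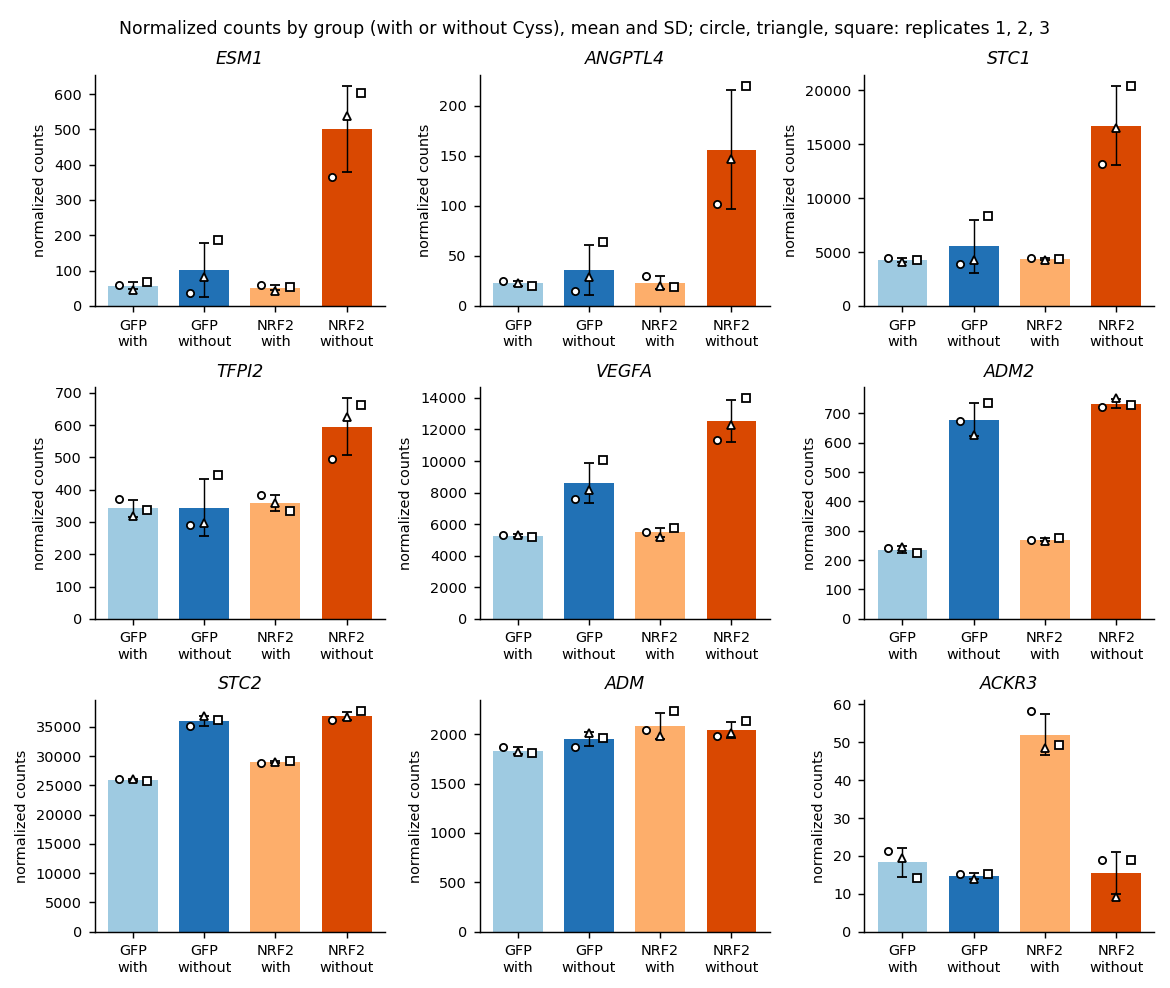
Normalized counts of the 9 genes (y axis, starting at 0) in the 4 groups (x axis). Bars are means, error bars SDs over 3 libraries, and symbols single libraries. ESM1, ANGPTL4, STC1 and TFPI2 are high in NRF2 cells without Cyss, with the square of GFP without Cyss (replicate 3) above the other 2 libraries of its group, and ACKR3 is high in NRF2 cells with Cyss (52 ± 5.43).

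Normalized counts are reads scaled by TMM factors to a common depth over all 12 libraries. VEGFA is the angiogenic ligand of the list. In GFP cells with Cyss its normalized counts were 5290, 5337 and 5156, against 7625, 8187 and 10066 without it. In NRF2 cells the values were 5529, 5195 and 5730 with Cyss and 11343, 12294 and 13969 without it. Every library without Cyss lay above every library with Cyss, and every NRF2 library without Cyss above every GFP library without Cyss. VEGFA rose without Cyss by a log2 fold change (log2FC) of 0.72 ± 0.0782 (SE of the fit, as for all log2FC below) in GFP cells (edgeR quasi-likelihood test, Benjamini-Hochberg adjusted p = 1.08e-04) and of 1.19 ± 0.0617 in NRF2 cells (edgeR, adjusted p = 5.28e-09). The response was larger in NRF2 cells, with an interaction of 0.48 ± 0.113 (adjusted p = 0.0134). Without replicate 3 of GFP without Cyss, the log2FC in GFP cells was 0.59 (adjusted p = 3.46e-06) and the interaction 0.61 (adjusted p = 1.32e-04). Without Cyss, NRF2 cells exceeded GFP cells by 0.54 ± 0.093 (edgeR, adjusted p = 0.00243; 0.67 and 1.38e-04 without that library). With Cyss present, the populations differed by 0.08 ± 0.0403, which did not pass (adjusted p = 0.325).

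ESM1 is the proteoglycan released downstream of VEGF signalling. GFP cells gave normalized counts of 58.8, 46.4 and 66.8 with Cyss and 37.2, 80.7 and 187 without it. NRF2 cells had 58.2, 43.2 and 54.7 with Cyss and 366, 538 and 603 without it. The NRF2 libraries without Cyss lay above all others, whereas the GFP libraries without Cyss straddled those with Cyss and only replicate 3 was clearly above them. The log2FC without against with Cyss was 3.28 ± 0.185 in NRF2 cells, a 9.66-fold ratio of means, and 0.83 ± 0.406 in GFP cells. Without replicate 3 the value in GFP cells was 0.03, and the difference between the populations without Cyss went from 2.32 to 3.12. ESM1 had the largest log2FC in NRF2 cells among the 9, at a low level of 41 to 606 reads a library there.

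ANGPTL4, the lipoprotein lipase inhibitor, followed ESM1 at a lower level. GFP cells had 24.9, 22.5 and 20.2 normalized counts with Cyss and 15.1, 28.8 and 63.6 without it. NRF2 cells had 30.3, 20 and 18.6 with Cyss and 102, 147 and 220 without it. The NRF2 libraries without Cyss did not overlap with any other group, and the GFP libraries without Cyss lay on both sides of those with Cyss. The log2FC without against with Cyss was 2.78 ± 0.286 in NRF2 cells and 0.66 ± 0.39 in GFP cells, where leaving out replicate 3 turned the sign to -0.06. Between the populations without Cyss the log2FC was 2.14 ± 0.361, and 2.86 without that library. The raw reads were few, 15 to 58 a library in GFP cells without Cyss, so the counting error of single values is large.

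STC1 is the stanniocalcin that acts on calcium and phosphate handling. Its normalized counts in GFP cells were 4423, 4094 and 4265 with Cyss and 3896, 4292 and 8370 without it. NRF2 cells had 4403, 4272 and 4392 with Cyss and 13162, 16547 and 20440 without it. The same profile thus appeared at a level far above that of ESM1 and ANGPTL4, with 1 high library in GFP cells and 3 in NRF2 cells. STC1 rose in NRF2 cells by 1.94 ± 0.103 (edgeR, adjusted p = 6.86e-09). In GFP cells the log2FC was 0.38 ± 0.205 and did not pass (adjusted p = 0.35), and it was -0.05 (adjusted p = 0.656) without replicate 3. NRF2 cells exceeded GFP cells without Cyss by 1.59 ± 0.233 (edgeR, adjusted p = 0.00101; 2.03 and 7.22e-06 without that library), and the interaction was 1.56 ± 0.272 (edgeR, adjusted p = 0.00191; 2.00 and 1.85e-07 without it). With Cyss the populations differed by 0.05 ± 0.038 (adjusted p = 0.526).

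TFPI2 is a Kunitz-type protease inhibitor. In GFP cells its normalized counts were 370, 317 and 338 with Cyss and 291, 296 and 446 without it. NRF2 cells had 383, 359 and 334 with Cyss and 496, 625 and 663 without it. Replicates 1 and 2 of GFP without Cyss lay below every library with Cyss and replicate 3 above them, while the NRF2 libraries without Cyss lay above all others. TFPI2 rose in NRF2 cells by 0.73 ± 0.0955 (edgeR, adjusted p = 5.48e-05). In GFP cells the log2FC was 0.02 ± 0.135 (adjusted p = 0.966), or -0.21 (adjusted p = 0.25) without replicate 3. The populations without Cyss differed by 0.79 ± 0.146 (edgeR, adjusted p = 0.00363; 1.02 and 1.37e-04 without that library), with an interaction of 0.72 ± 0.185 (edgeR, adjusted p = 0.0218; 0.95 and 2.51e-04 without it).

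STC2, the paralogous stanniocalcin, was the most abundant of the 9 per length of transcript. GFP cells gave normalized counts of 26101, 25999 and 25797 with Cyss and 35099, 36831 and 36076 without it. NRF2 cells had 28738, 29037 and 29102 with Cyss and 36161, 36665 and 37638 without it. The libraries of a group lay close together and those without Cyss were higher in both populations, but unlike STC1 the GFP and NRF2 libraries overlapped without Cyss. STC2 rose by 0.48 ± 0.033 in GFP cells (edgeR, adjusted p = 1.19e-06; 0.47 and 5.58e-06 without replicate 3) and by 0.35 ± 0.0398 in NRF2 cells (edgeR, adjusted p = 1.50e-05). The interaction was -0.13 ± 0.047 and did not pass (adjusted p = 0.1; -0.12 and 0.145 without replicate 3), although it passed under 6 of the alternative settings (adjusted p from 0.0222 to 0.0979). The populations without Cyss differed by 0.03 ± 0.0424 (adjusted p = 0.631), or 0.04 (adjusted p = 0.634) without that library. NRF2 cells with Cyss were higher than GFP cells with Cyss by 0.17 ± 0.0311 (edgeR, adjusted p = 0.00375), a difference below the size required for a call. In NRF2 cells the call was lost when only library size was used for scaling (log2FC 0.29).

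ADM2 (intermedin) is a peptide of the calcitonin family. Normalized counts in GFP cells were 240, 244 and 223 with Cyss and 674, 625 and 737 without it. NRF2 cells had 268, 264 and 277 with Cyss and 721, 751 and 727 without it. The libraries without Cyss lay above all those with Cyss in both populations, and the GFP and NRF2 libraries without Cyss overlapped. The log2FC was 1.53 ± 0.0762 in GFP cells (1.46 without replicate 3) and 1.44 ± 0.0676 in NRF2 cells, and the interaction was -0.08 ± 0.101 (-0.02 without that library). ADM2 thus had the largest log2FC of the 9 in GFP cells, and one that did not hang on the library that stood apart.

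ADM (adrenomedullin) is its paralog. Normalized counts in GFP cells were 1876, 1820 and 1807 with Cyss and 1872, 2016 and 1961 without it. NRF2 cells had 2044, 1981 and 2233 with Cyss and 1987, 2010 and 2137 without it. The groups with and without Cyss overlapped in both populations. The log2FC without Cyss was 0.09 ± 0.0444 in GFP cells (adjusted p = 0.295; 0.09 and 0.435 without replicate 3) and -0.03 ± 0.0532 in NRF2 cells (adjusted p = 0.777), so neither passed. With Cyss, NRF2 cells were above GFP cells by 0.20 ± 0.0468 (edgeR, adjusted p = 0.0231), below the size required for a call.

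ACKR3, the CXCL12 scavenger, was among the lowest of the 9. GFP cells had 21.4, 19.5 and 14.1 normalized counts with Cyss and 15.1, 13.8 and 15.3 without it. NRF2 cells had 58.2, 48.4 and 49.2 with Cyss and 18.8, 9.21 and 18.9 without it. Only the NRF2 libraries with Cyss stood out, and the other 3 groups overlapped. The log2FC was -1.72 ± 0.248 without against with Cyss in NRF2 cells and 1.51 ± 0.206 for NRF2 against GFP cells with Cyss. In GFP cells it was -0.30 ± 0.261 for Cyss withdrawal (-0.33 without replicate 3), and between the populations without Cyss it was 0.08 ± 0.32 (0.11 without that library). These values rest on 45 to 48 reads a library in the high group and 9 to 26 in the others.

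**Figure D2:**
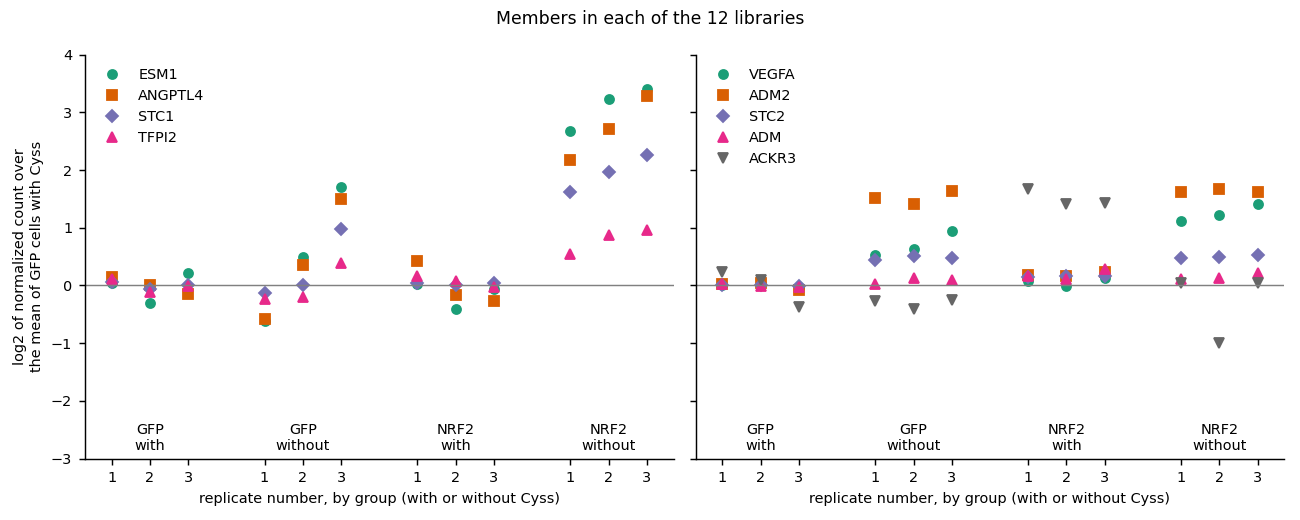
Log2 of each library's normalized count over the mean of GFP cells with Cyss (y axis) in the 12 libraries, by replicate number and group (x axis). Left, ESM1, ANGPTL4, STC1 and TFPI2 are above 0 together in replicate 3 of GFP without Cyss and in all 3 libraries of NRF2 without Cyss. Right, VEGFA, ADM2 and STC2 are above 0 in all 6 libraries without Cyss, ADM stays near 0, and ACKR3 is high in NRF2 cells with Cyss.

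Each of the 9 passed the filter on low counts (a group mean of 10 normalized counts or more) in each comparison. Of the 5 genes tested, 2 (VEGFA and STC2) were called higher without Cyss in GFP cells, where 2.1% of 17452 genes were called in either direction (a call took an adjusted p under 0.1 together with a log2FC over 0.32 in either direction). In NRF2 cells 4 of 5 were called higher (VEGFA, STC1, STC2 and TFPI2), against 11.9% of 17266 genes. NRF2 against GFP cells gave 0 of 5 with Cyss, against 1.61% of 17449 genes, although STC2 and ADM had an unadjusted p under 0.05 in edgeR and DESeq2 likewise called 0. Without Cyss it gave 3 of 5 (VEGFA, STC1 and TFPI2), against 10.1% of 17297 genes. The interaction was called for the same 3 (adjusted p under 0.1), against 15.1% of 17674 genes. None of the 5 was called lower in any comparison.

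In terms of libraries that did not overlap between groups, 3 of the 9 (VEGFA, STC2 and ADM2) were higher in every library without Cyss in GFP cells, where 10.8% of all genes were. In NRF2 cells 7 were higher, where 18.7% of genes were, and ACKR3 was lower, where 18.7% were lower. With Cyss 4 of the 9 (STC2, ADM, ADM2 and ACKR3) were higher in every NRF2 library than in every GFP library, where 10.7% of genes were. Without Cyss 5 (ESM1, ANGPTL4, VEGFA, STC1 and TFPI2) were, where 18.1% of genes were. As 4 of the 9 were listed for such differences, these counts describe the list and nothing is read from them. The Cyss comparison in GFP cells and that in NRF2 cells share no libraries. Each shares libraries with the comparisons of NRF2 against GFP cells and with the interaction. Calls of comparisons that share libraries are not independent.

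Levels were compared between genes per kilobase of annotated exon (GENCODE 44 on GRCh37). In GFP cells with Cyss, STC2 led with 5130 ± 30.6 normalized counts per kilobase, followed by STC1 (1031 ± 39.9), ADM (789 ± 15.8), VEGFA (365 ± 6.51), TFPI2 (140 ± 11), ADM2 (55 ± 2.6) and ESM1 (21.3 ± 3.81). ANGPTL4 (9.1 ± 0.955) and ACKR3 (8.84 ± 1.83) came last and did not differ beyond their spread. In NRF2 cells without Cyss, STC2 stood at 7274 ± 148 per kilobase and STC1 at 4044 ± 881, ADM (879 ± 34.7) and VEGFA (869 ± 92.1) were within their spread of each other, and so were ESM1 (187 ± 45.5) and both ADM2 (171 ± 3.75) and TFPI2 (243 ± 35.7). In GFP cells with Cyss, ESM1 had been under both. The exon length of VEGFA, 14431 bases, joins many isoforms, so its level per kilobase is a low estimate relative to the others.

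On GRCh37 the genes lie on 8 chromosomes: ESM1 (5, 54273695 to 54318499, minus strand), STC2 (5, 172741726 to 172755450, minus), VEGFA (6, 43737921 to 43754224, plus), TFPI2 (7, 93514708 to 93520065, minus), STC1 (8, 23699442 to 23712319, minus), ADM (11, 10326620 to 10328944, plus), ANGPTL4 (19, 8428173 to 8439254, plus), ADM2 (22, 50919972 to 50924869, plus) and ACKR3 (2, 237476430 to 237490997, plus). Reads were counted without regard to strand, and exons of TFPI2 share 44 bases with GNGT1 and those of ADM2 131 bases with SBF1, each on the other strand. VEGFA shares 188 bases with an unnamed gene on the other strand, and ESM1 shares 44 bases with an unnamed gene on its own strand, where reads cannot be assigned.

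Across the 12 libraries the genes of the first pattern ran together: Pearson r was 0.99 between ESM1 and STC1, 0.98 between ESM1 and ANGPTL4 and 0.96 between STC1 and TFPI2, and 0.98 between ADM2 and STC2. VEGFA ran with both sets, with r of 0.91 to ESM1, 0.90 to STC1, 0.89 to ANGPTL4, 0.78 to TFPI2, 0.93 to ADM2 and 0.91 to STC2. The patterns were drawn from these same libraries. These describe 12 libraries in 4 groups and mostly reflect differences between groups. Over all genes with a group mean of at least 50, the 3 most like ESM1 were ARHGAP22 (r = 0.990), GFPT2 (0.989) and SH2B3 (0.988). ARHGAP22 and GFPT2 were also the 2 most like ANGPTL4 (0.991 and 0.996), followed by ITGA3 (0.989). STC1 was closest to ITGA2 (0.997), TBX3 (0.995) and ARHGAP22 (0.995), and VEGFA to FAM167A (0.992), FYN (0.991) and TPBG (0.991). TFPI2 was closest to SLC1A1 (0.990), a glutamate and cysteine transporter, LAMA1 (0.984) and PXN (0.976). ADM was closest to TAF1C (0.936), ATG16L2 (0.921) and LRPAP1 (0.892). ADM2 was closest to GPT2 (0.995), SESN2 (0.993) and SLC7A5 (0.992), and STC2 to SLC1A5 (0.993), SLC6A9 (0.985) and CAMTA2 (0.980), of which SLC7A5, SLC1A5 and SLC6A9 are amino acid transporters. ACKR3 had the lowest best match, MAP3K6 (0.929), followed by CD248 (0.925) and CDHR3 (0.923).

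The other genes of each pathway were taken from fixed lists, described by counts and by the median log2FC, beside a median of 0.00 in GFP cells and -0.01 in NRF2 cells over all genes tested. Over those genes, 1.57% were called higher and 0.533% lower without Cyss in GFP cells, and 6.81% and 5.14% in NRF2 cells. Coagulation and plasmin genes, the system in which TFPI2 acts, had 6 of 7 called higher without Cyss in NRF2 cells (TFPI, F3, PLAT, PLAU, PLAUR and THBD; median log2FC 0.88). In GFP cells only PLAT, tissue plasminogen activator, passed, by 0.68 ± 0.13 (edgeR, adjusted p = 0.011; 0.44 and 3.45e-04 without replicate 3; list median 0.22, or 0.13 without it). Without Cyss, NRF2 cells exceeded GFP cells for the same 6 (median 0.67, or 0.89 without that library, with 6 called again), where 5.98% of all genes were. In GFP cells PLAT measured 2751 ± 51.8 normalized counts with Cyss and 4396 ± 1184 without it, and in NRF2 cells 2752 ± 105 and 7477 ± 1407. THBD, the thrombin receptor thrombomodulin, had 65.1 ± 10.1, 88.5 ± 12.5, 68.7 ± 7.01 and 175 ± 16 in the same order, and rose in NRF2 cells by 1.35 ± 0.127 (edgeR, adjusted p = 1.99e-06).

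Of 6 other VEGF family genes and receptors tested, 0 passed in GFP cells (edgeR, 0 with an unadjusted p under 0.05) and 2 rose in NRF2 cells without Cyss, VEGFC, the lymphatic growth factor, by 0.64 ± 0.0559 (edgeR, adjusted p = 1.03e-06) and KDR, the main VEGFA receptor, by 0.65 ± 0.175 (adjusted p = 0.0152), with list medians of 0.02 and 0.18. KDR was low, from 45.1 ± 7.78 normalized counts in NRF2 cells with Cyss to 70.9 ± 9.3 without it. NRP1, a VEGFA coreceptor, was in addition higher in NRF2 cells than in GFP cells when Cyss was absent (0.37 ± 0.0483, edgeR, adjusted p = 5.58e-04; 0.41 without replicate 3). Among 14 other angiogenic growth factors, CCN2, EDN1, FGF2 and PDGFA rose and PDGFD fell in NRF2 cells without Cyss (list median 0.07). In GFP cells 0 passed (edgeR, 4 with an unadjusted p under 0.05, list median 0.04). There CCN2 missed only the size required for a call (log2FC 0.28, edgeR, adjusted p = 4.35e-04, or 0.28 and 0.00169 without replicate 3). Of 12 endogenous angiogenesis inhibitors, ADAMTS1, ISM1, SEMA3A, THBS1 and TIMP3 were called higher in NRF2 cells (list median 0.19). In GFP cells 0 were called (edgeR, 3 with an unadjusted p under 0.05, list median 0.02). THBS1 missed only the size required there (log2FC 0.13, edgeR, adjusted p = 0.0449, or 0.13 and 0.0814 without replicate 3). Of 4 genes of the angiopoietin family tested beside ANGPTL4, ANGPT1, the TEK ligand, fell in GFP cells (-0.33 ± 0.0574, edgeR, adjusted p = 0.00526, and -0.33 without replicate 3). Without Cyss ANGPT1 was higher in NRF2 than in GFP cells (0.43 ± 0.0581, edgeR, adjusted p = 6.25e-04, and 0.43 without replicate 3). With Cyss that difference missed only the size required (0.31, edgeR, adjusted p = 0.0022). ANGPTL6 was called higher in NRF2 cells (1.10 ± 0.398, edgeR, adjusted p = 0.0576) at very low counts, from 6.07 ± 2.7 to 12.9 ± 1.67. The list medians were -0.14 in GFP cells and 0.16 in NRF2 cells. In NRF2 cells ANGPT1 (-0.20) and ANGPTL2 (-0.13) were lower, and ANGPTL6 and the low-count ANGPTL5 (0.44) higher.

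CALCRL, the receptor through which ADM and ADM2 signal, was the only gene called among 4 tested of the calcitonin peptide family, at 81.2 ± 13.3 normalized counts with Cyss and 70 ± 7.36 without it in GFP cells, and 201 ± 13.7 and 91.4 ± 7.05 in NRF2 cells. Like ACKR3 it was highest in NRF2 cells with Cyss. It exceeded GFP cells there by 1.34 ± 0.118 (edgeR, adjusted p = 1.49e-06) and fell without Cyss in NRF2 cells by 1.13 on the log2 scale (SE 0.112, adjusted p = 3.67e-06), with -0.19 ± 0.153 in GFP cells (adjusted p = 0.539). Its call between the populations without Cyss (0.38 ± 0.135, adjusted p = 0.0651) was lost without replicate 3 of GFP without Cyss. CXCL12, the ligand of ACKR3, was abundant, with 13773 ± 615, 11724 ± 773, 14136 ± 207 and 10310 ± 648 normalized counts in the 4 groups. It fell without Cyss in NRF2 cells (-0.45 ± 0.0523, edgeR, adjusted p = 1.80e-05). In GFP cells CXCL12 missed only the size required (-0.23, edgeR, adjusted p = 0.0192, or -0.18 and 0.0619 without replicate 3). CXCL12 was the only gene called of 5 tested in the list of ACKR3 ligands and related receptors.

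Integrated stress and endoplasmic reticulum stress genes rose in both populations, 9 of 11 in GFP cells (8 without replicate 3, the call for PPP1R15A being lost) and 10 of 12 in NRF2 cells, with medians of 0.84 and 0.94, beside the 1.57% and 6.81% of all genes called higher. SESN2, a leucine sensor and ATF4 target, rose by 1.72 ± 0.0565 in GFP cells and 1.69 ± 0.0555 in NRF2 cells (edgeR, adjusted p = 7.84e-10 and 1.25e-10; 1.68 in GFP cells without replicate 3). ASNS, asparagine synthetase, rose by 1.37 ± 0.0374 and 1.17 ± 0.0527 (edgeR, adjusted p = 1.21e-10 and 1.89e-09; 1.35 in GFP cells without replicate 3). CHAC1, which degrades glutathione, went from 518 ± 27.9 to 2210 ± 91.9 normalized counts in GFP cells and from 522 ± 35.8 to 1820 ± 120 in NRF2 cells. ADM2, STC2 and VEGFA were also higher without Cyss in both populations. Their log2FC in GFP and NRF2 cells were 1.53 and 1.44 for ADM2, 0.48 and 0.35 for STC2, and 0.72 and 1.19 for VEGFA. ESM1, ANGPTL4, STC1 and TFPI2 did not show such a rise in the mean of replicates 1 and 2 of GFP without Cyss. A link of these members to the stress genes was not tested. HIF genes and their targets outside glycolysis were called higher for 0 of 19 in GFP cells (edgeR, 4 with an unadjusted p under 0.05) and 2 of 18 in NRF2 cells (EPAS1 and BNIP3L), with medians of 0.00 and 0.06. In NRF2 cells HIF1A (0.22), LOX (0.17), PDK1 (0.17), HILPDA (-0.26) and KDM3A (-0.19) missed only the size required (edgeR, adjusted p from 0.00236 to 0.0861). In GFP cells NDRG1 (0.16), EPAS1 (0.18) and EGLN1 (-0.23) missed only the size required (edgeR, adjusted p = 0.0246, 0.0441 and 0.0366). Without replicate 3 the adjusted p of EPAS1 was 0.131 in edgeR. Between the populations without Cyss, EPAS1 (0.36), CA12 (0.34) and the low-count CA9 (0.76) were called higher in NRF2 cells and ANKRD37 (-0.46) lower. Of all genes, 5.98% were called higher and 4.09% lower there. Without replicate 3 the call for CA9 was lost and BNIP3L (0.32) was called. Of 8 PPAR genes and targets, to which ANGPTL4 belongs, PPARD rose and RXRA fell in NRF2 cells, and PPARA fell in GFP cells (list medians -0.04 and -0.06).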

How the data were processed

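RNA of 12 libraries, 3 in each of 4 groups, was sequenced single-end from an unstranded TruSeq kit. The authors mapped reads to hg19 with TopHat 2.1.0 and counted reads per gene symbol with HTSeq 0.11.2 without strand; these raw counts were deposited, 1 file a library. Counts of 523 rRNA genes were left out, as were reads that the counting did not assign to a gene (15.9% to 17.1% of reads), and 55242 genes remained. Reads on no annotated feature made up 5.82% to 7.84% of reads. Genes whose mean TMM-normalized count reached 10 in one of the groups compared were tested with the edgeR 4.0.16 quasi-likelihood test on the 6 libraries compared (all 12 for the interaction), TMM factors being recomputed after the filter, with Benjamini-Hochberg adjustment over all genes. A call took an adjusted p under 0.1 together with a log2FC over 0.32 in either direction; for the interaction the adjusted p sufficed. DESeq2 1.42.0 Wald tests, other scalings and filters, a stricter threshold, the replicate number as a block and leaving out each library were alternatives. On counts simulated from these libraries, 200 genes a comparison were changed 2-fold or 4-fold. The fit recovered 100% of them in each comparison, with 9 to 32 false calls among 17285 to 17690 genes. Changes under 2-fold, such as those called for STC2 (log2FC 0.48 in GFP cells and 0.35 in NRF2 cells), were not simulated. The 100% is therefore not read as recovery of smaller changes, or of low-count genes such as ANGPTL4, ACKR3 and ESM1.

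The members and lists were chosen with earlier results of these data known. One gene of the coagulation and plasmin list is not reported here and was left out of that list's counts and medians. Named are the members, for each list and comparison up to 3 genes with the largest called changes, and the 3 genes most like each member over 12 libraries. Some other list genes are named where 10 or fewer were called, where only the size required was missed, or to describe a list median. Not every gene that missed only the size required is named. These were picked after their values were seen. The sources used here do not say that replicates were separate cultures, so p-values measure the spread between these libraries, which may be technical. Depth limits the precision of ANGPTL4, ACKR3 and ESM1 most. Figures were drawn with matplotlib 3.10.9.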

Additional observations from a re-analysis of the deposited data

Results flagged for a closer look

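The effect of Cyss withdrawal differed between NRF2 and GFP cells for 36 tested members and list genes (edgeR interaction term, adjusted p under 0.1). Of all genes, 15.1% were called. The genes tested were 5 members and 7 coagulation and plasmin, 6 VEGF, 14 other growth factor, 12 inhibitor and 4 angiopoietin genes. Also tested were 12 stress, 19 HIF, 8 PPAR, 4 calcitonin family and 5 ACKR3 list genes. Members and lists were chosen with earlier results known, so nothing is read from the count. The values that follow are interaction log2FC, positive where the response was higher in NRF2 cells. Among the tested members these were STC1 (1.56), TFPI2 (0.72) and VEGFA (0.48). In the coagulation and plasmin list they were THBD (0.92), PLAT (0.76), PLAUR (0.73), PLAU (0.71), F3 (0.56) and TFPI (0.49). Among VEGF and other angiogenic growth factors, FGF2 had 0.61, VEGFC 0.54, NRP1 0.35, PDGFA 0.32, CCN2 0.26, EDN1 0.26, CCN1 0.15 and PTN -0.19. Among angiogenesis inhibitors, SEMA3A had 0.43, ISM1 0.42, TIMP3 0.38, ADAMTS1 0.32 and THBS1 0.29. Among stress genes, ERN1 had 0.82, PPP1R15A 0.44, DDIT3 -0.35, CHAC1 -0.29 and ASNS -0.20. Among HIF and PPAR genes, PPARD had 0.36, BNIP3L 0.34, EPAS1 0.33, PPARA 0.32, EGLN1 0.23, HIF1A 0.22 and HILPDA -0.26. CALCRL (-0.94) and CXCL12 (-0.22) had the lower response in NRF2 cells. Without replicate 3 of GFP without Cyss, the calls for ASNS, CCN1, EGLN1 and HILPDA were lost. No formal outlier test was applied to groups of 3 libraries.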

How the results depend on the processing

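Of 675 values of the members under alternative settings, 9 turned their sign, all from leaving out a library and 3 of them from leaving out replicate 3 of GFP without Cyss, with STC1 in GFP cells (-0.05) among these. The tested members gained a call in 7 values, 6 of them the interaction of STC2, and lost 1. Leaving out replicate 3 of GFP without Cyss reversed ANGPTL4 in GFP cells (log2FC -0.06; 1.05 without replicate 1 of that group, the highest of such fits) and raised the interactions of ESM1 to 3.26 and ANGPTL4 to 2.85. STC1 in GFP cells was called with no filter on low counts (0.37, adjusted p = 1.95e-14 in edgeR) against adjusted p-values up to 0.688 elsewhere; the cause was not tested. STC2 in NRF2 cells lost its call with library size only (0.29). Genes called for NRF2 against GFP cells with Cyss numbered 105 with DESeq2 in place of 281, and 160 to 307 over the fits that leave out 1 library, the lowest without replicate 1 of NRF2 with Cyss. Genes called for the interaction numbered 1591 at an adjusted p under 0.05 in place of 2669, and 1394 to 3682 over the fits that leave out 1 library, the lowest without replicate 2 of GFP without Cyss. The fit with a replicate block called 386 genes in GFP cells in place of 367. For the interaction it called 3173 in place of 2669, with STC2 among them (-0.13, edgeR, adjusted p = 0.0969). Between libraries with the same number, the correlations of deviations from group means ran from -0.14 to 0.26. Every library was closest to its own number in the NRF2 comparison of Cyss only. With 3 libraries a group, these values cannot decide whether libraries with the same number belong together. No setting moved the count of tested members called by more than 1.5 times. Depth limits ANGPTL4 and ACKR3, with fewer than 70 reads in most libraries.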
